A study of Mus musculus with 28 samples.

Results

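The respiratory chain of mitochondria is built from subunits that are made in the cytosol and imported and from a smaller set that the mitochondrial genome encodes. The 80 genes described here were taken as nuclear-encoded subunits of oxidative phosphorylation. They were picked by symbol from the 47729 gene IDs of the count tables. The symbols were those beginning with Nduf, a subunit letter and a digit, Sdha to Sdhd, Uqcr, Cyc1, Cycs, Cox4 to Cox8 and Atp5. The pattern goes by name, so it holds Cox7a2l, described below as a supercomplex factor, and may miss subunits with other names. The pattern matched 96 symbols. Of these, 9 were pseudogenes and 7 had a mean under 1 CPM, the count of a gene relative to the total of its library. For this cut the totals were unscaled, while the levels given below use scaled totals. The 80 that remained were 37 genes of complex I, 4 of complex II, 9 of complex III, the somatic cytochrome c gene Cycs, 12 of complex IV and 17 of complex V, and every one of the 80 passed the filter on low counts and was tested.

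Complex I (NADH dehydrogenase) and complex II (succinate dehydrogenase, which is also an enzyme of the tricarboxylic acid cycle) pass electrons to coenzyme Q. Complex III passes them on to cytochrome c, complex IV reduces oxygen, and complex V, the ATP synthase, uses the resulting proton gradient to make ATP. In the epidermis, basal stem cells divide and move during inflammation and wound closure, which are processes with a high demand for ATP and for metabolic intermediates.

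The cells were epidermal stem cells sorted from the skin of C57BL/6 mice that the labels give as female and as 60 days old at the start of treatment. The sort took cells positive for integrin α6, integrin β1 and Sca1 and negative for CD34. Skin received imiquimod, an agonist of Toll-like receptor 7 that causes psoriasis-like inflammation, or the control vanicream, for 6 days. Groups of 2 RNA-seq libraries each came from day 6, from day 30, and from wounds made at day 30 and collected at 6 h or 12 h, with control and imiquimod skin at every time. No gene was deleted and no transgene was used per the labels. The labels do not say whether the 2 libraries of a group came from separate animals. In both day 30 groups the 2 libraries differed in Xist and Y-linked reads, as given below, so there they came from separate animals. In the other groups the spread between the 2 libraries may be technical. The p-values measure the spread between libraries over all groups of a fit. With all libraries in the fit, that spread includes the difference in sex at day 30. Of the 28 samples of the series, 16 are these RNA-seq libraries and 12 are ATAC-seq samples that were not used here.

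Library totals ran from 23623968 to 76993427 counts. Summed CPM of 8 markers of basal epidermis lay between 38290 and 75433 in the 16 libraries. Both day 30 libraries numbered 1 went against their label: the control one held 0 reads of Xist and 7830 reads of Y-linked genes, and the imiquimod one 1 and 6023, while each other library held at most 2 Y-linked reads. These 2 libraries also gave the members a larger share of all counts (0.983% and 1.02%) than the day 30 libraries numbered 2 (0.809% and 0.801%). The results that rest on day 30 are therefore given with them and, as a second value, without both. Leaving out only 1 day 30 library makes the control and imiquimod groups of that day unequal in Xist and Y-linked reads. Counts of members from fits with libraries left out are given without the share of all genes called in the same fit. They do not set the members against all genes. Day 30 imiquimod library 1 also held more fibroblast marker RNA (161 CPM in sum over 8 markers, with Col1a1 at 50.6) than the other day 30 libraries (8.60 to 14.0 CPM).

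Promoters of 4 members are printed because these members mark the patterns described below. Ndufa4 rose with imiquimod and in all 4 wound groups. Sdhd rose with imiquimod and, with all libraries in the fit, in 3 of the 4. Cycs rose at day 6 and was low in every later library, and Cox7a2l fell in wounds. The sequences are RefSeq's for the mouse assembly GRCm38.p6, 5′ to 3′ along the gene, from 250 bases before the start of transcription to 50 after it. All 4 genes lie on the minus strand. Capitals mark matches on either strand to 5 motifs: NRF1 (GCGCANGCG), the ETS motif of GABP (CCGGAAG), ERR (TCAAGGTCA), CREB (TGACGTCA) and the core of the HIF motif (ACGTGC).
Ndufa4, chr6:11907401-11907700: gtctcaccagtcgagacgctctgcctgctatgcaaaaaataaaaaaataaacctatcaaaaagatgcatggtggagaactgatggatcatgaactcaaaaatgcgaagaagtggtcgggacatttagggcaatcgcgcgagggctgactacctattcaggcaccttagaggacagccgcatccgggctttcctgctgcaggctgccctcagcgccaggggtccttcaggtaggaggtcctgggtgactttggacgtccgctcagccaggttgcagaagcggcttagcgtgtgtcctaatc
Sdhd, chr9:50603800-50604099: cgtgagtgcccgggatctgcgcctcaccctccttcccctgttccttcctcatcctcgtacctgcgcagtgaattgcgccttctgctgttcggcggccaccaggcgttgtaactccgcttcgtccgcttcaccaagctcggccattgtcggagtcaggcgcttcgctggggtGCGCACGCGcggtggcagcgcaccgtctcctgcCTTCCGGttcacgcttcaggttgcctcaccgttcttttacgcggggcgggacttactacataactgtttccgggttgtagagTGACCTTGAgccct
Cycs, chr6:50566520-50566819: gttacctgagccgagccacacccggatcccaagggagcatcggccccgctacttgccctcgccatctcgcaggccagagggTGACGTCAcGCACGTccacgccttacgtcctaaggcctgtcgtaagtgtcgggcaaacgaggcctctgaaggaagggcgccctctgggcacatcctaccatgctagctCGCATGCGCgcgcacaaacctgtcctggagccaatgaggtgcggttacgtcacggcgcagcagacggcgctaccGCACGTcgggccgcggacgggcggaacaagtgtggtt
Cox7a2l, chr17:83514284-83514583: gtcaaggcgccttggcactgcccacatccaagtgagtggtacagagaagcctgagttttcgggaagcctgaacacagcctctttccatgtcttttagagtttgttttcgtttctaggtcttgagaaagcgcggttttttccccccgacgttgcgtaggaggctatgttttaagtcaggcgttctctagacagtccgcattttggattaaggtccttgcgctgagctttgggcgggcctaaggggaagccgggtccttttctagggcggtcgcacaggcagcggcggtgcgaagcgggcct

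In the Sdhd promoter the NRF1 match began 79 bases and the ETS match 46 bases before the start, and an ERR match lay after it. The Cycs promoter held an NRF1 match that began 61 bases before the start, a CREB match and 2 matches of the HIF core. None of these matches overlapped. No match to these motifs was found in the windows of Ndufa4 and Cox7a2l. RefSeq promoters were matched for 64 of the 80 members. An NRF1 match was present in 21 of these 64 (32.8%) and in 7.03% of all 27025 promoters of the same length. The ETS match was present in 16 (25%) against 9.93%, and a YY1 motif (AAGATGGCG) in 7 (10.9%) against 1.64%. CREB was matched in 5 (7.81%) against 2.03% and ERR in 2 (3.12%) against 0.466%. The HIF core was matched in 3 (4.69%), fewer than the 6.68% of all promoters. NRF1, GABP and YY1 are transcription factors known for genes of the respiratory chain. A match describes the letters and shows no binding. Among the 54 matched members that rose at day 6, 17 held the NRF1 motif, as did 4 of the 10 others.

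The first comparison asked how the subunits stood at the end of imiquimod treatment. At day 6 the summed level of the 80 members was 14471 ± 666 CPM with imiquimod and 6871 ± 729 with control cream (SD, n = 2 each). The libraries did not overlap, with 14000 and 14942 CPM against 6356 and 7387. In edgeR's quasi-likelihood test with Benjamini-Hochberg adjustment, 68 members were higher and 1 was lower, where 21.6% of all 17299 genes tested were higher and 15% lower. The median log2 change of the members was 0.98, and that of all genes was 0.10. Every complex took part. Higher members numbered 30 of 37 in complex I (median 0.89), 4 of 4 in complex II (1.04), 9 of 9 in complex III (1.18), 10 of 12 in complex IV (1.05) and 14 of 17 in complex V (1.19).

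**Figure D1:**
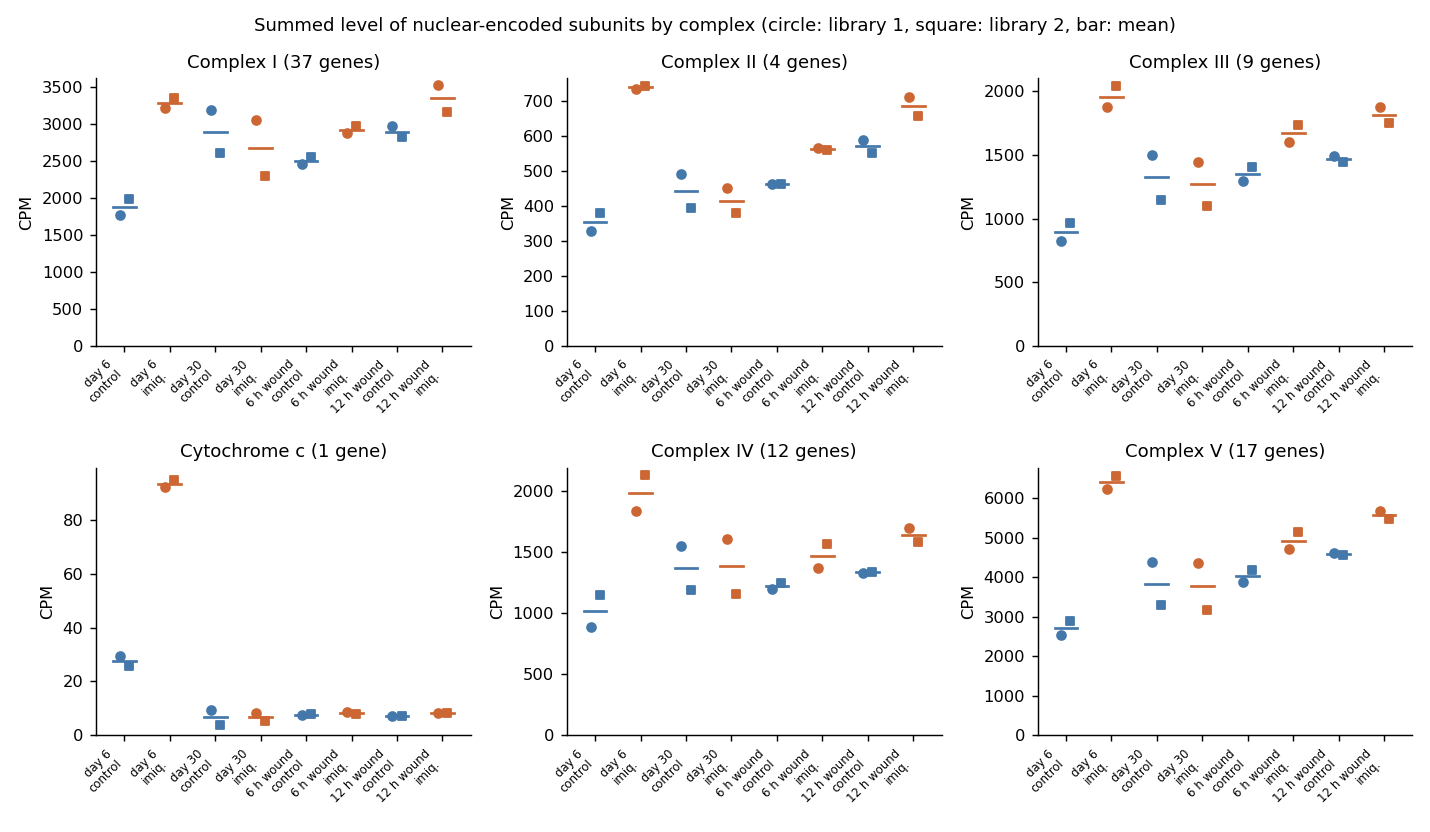
Summed CPM of the members of each complex (vertical axis, from 0) in the 16 libraries (horizontal axis, 8 groups; blue for control and orange for imiquimod skin; circle for library 1, square for library 2, bar for the mean of the 2). In complex V both day 6 imiquimod libraries lay above every other library, and the single cytochrome c gene was lower in all later libraries than at day 6.

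Ndufa4 had the largest change of the 80. Although named for complex I, its protein is now counted as a subunit of complex IV. Its level was 46.2 and 49.3 CPM in the day 6 control libraries and 246 and 282 in the imiquimod libraries. Both imiquimod libraries were several times above both controls, a log2 change of 2.47 ± 0.14 (SE; adjusted p = 7.03e-07). The paralog Ndufa4l2, known as a hypoxia-induced gene that dampens complex I activity, stood at 252 and 217 CPM in control and at 109 and 286 with imiquimod. Its libraries overlapped and the change did not pass (-0.25 ± 0.39, adjusted p = 0.662). Other complex I members that rose were Ndufb7, an accessory subunit (26.7 and 26.5 against 77.1 and 60.0 CPM, log2 change 1.37 ± 0.16), and the iron-sulfur core subunit Ndufs1 (68.4 and 68.2 against 132 and 129 CPM, 0.93 ± 0.13). Ndufc2, a membrane arm subunit, rose by 1.43 ± 0.17. The smallest called changes in complex I were those of Ndufa13 (0.53 ± 0.19) and Ndufb3 (0.55 ± 0.19), and both lost the call without 1 of several libraries, with adjusted p up to 0.312 and 0.355 without control library 1. The 7 complex I members that did not pass were Ndufa4l2, Ndufa6, Ndufa7, Ndufb11, Ndufb2, Ndufb4 and Ndufv3, with log2 changes from -0.25 to 0.74.

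Among the dehydrogenase subunits of complex II, the membrane anchor Sdhd changed most. It stood at 62.0 and 66.7 CPM in control libraries and at 204 and 211 with imiquimod (log2 change 1.69 ± 0.17, adjusted p = 2.2e-05). The flavoprotein Sdha (0.97 ± 0.12) and the iron-sulfur subunit Sdhb (1.11 ± 0.16) rose by less. The other anchor, Sdhc, rose by 0.51 ± 0.16 (adjusted p = 0.0265), and lost the call without control library 1 (0.267) or imiquimod library 2 (0.148). In complex III, the gene of cytochrome c1, Cyc1, went from 98.4 and 110 CPM to 348 and 313 (1.67 ± 0.15, adjusted p = 1e-05). Uqcrq, a small accessory subunit, went from 36.1 and 49.5 CPM to 111 and 154 (1.63 ± 0.25). The core protein gene Uqcrc1 had the smallest change of the complex (0.77 ± 0.19), which did not pass without control library 1 (adjusted p = 0.0631). Cycs, the mobile electron carrier, went from 29.3 and 25.7 CPM to 92.4 and 95.0 (1.77 ± 0.29, adjusted p = 0.000519). In every one of these genes both imiquimod libraries lay above both controls.

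In complex IV the larger changes were those of Cox7b (1.37 ± 0.23) and Cox6b1 (1.34 ± 0.17), both small structural subunits. Cox4i1, the ubiquitous form of a regulatory subunit, rose by 0.76 ± 0.21 and lost the call without control library 1 (adjusted p = 0.0993). The exceptions were Cox6b2, a form known from testis at 0.553 to 2.34 CPM over all libraries, and Cox7a2l, a factor that joins complexes III and IV into supercomplexes. Cox7a2l stood at 117 and 148 CPM in control and at 114 and 142 with imiquimod, a log2 change of -0.05 ± 0.23 (adjusted p = 0.888). In complex V, Atp5mpl, a small proteolipid of the ATP synthase, went from 25.7 and 29.5 CPM to 102 and 123 (2.03 ± 0.19, adjusted p = 1.24e-05). The catalytic subunit gene Atp5b went from 839 and 896 CPM to 2103 and 2263 (1.33 ± 0.21). Atp5s, named for a coupling factor of the synthase, was the one member that fell, by 0.69 ± 0.23 on the log2 scale (9.60 and 12.9 CPM against 6.85 and 7.07, adjusted p = 0.0301). That call was lost without control library 2 (0.24), imiquimod library 1 (0.0962) or imiquimod library 2 (0.0839).

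The 3 genes Atp5g1, Atp5g2 and Atp5g3 encode the same mature c subunit of the rotor ring. At day 6 Atp5g3 rose by 1.60 ± 0.20 and Atp5g1 by 1.41 ± 0.15. Atp5g2 changed by 0.53 ± 0.21 (adjusted p = 0.0672). With the library number as a block its adjusted p was 0.0288. The tissue forms named in the pattern were scarcely present. Cox6a2, Cox7a1 and Cox8b, the forms of heart and skeletal muscle, the hypoxia-linked form Cox4i2, and Ndufb4c, Cox7b2 and Cox8c were the 7 genes under the 1 CPM mean. The highest of them had a mean of 0.246 CPM on unscaled totals.

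**Figure D2:**
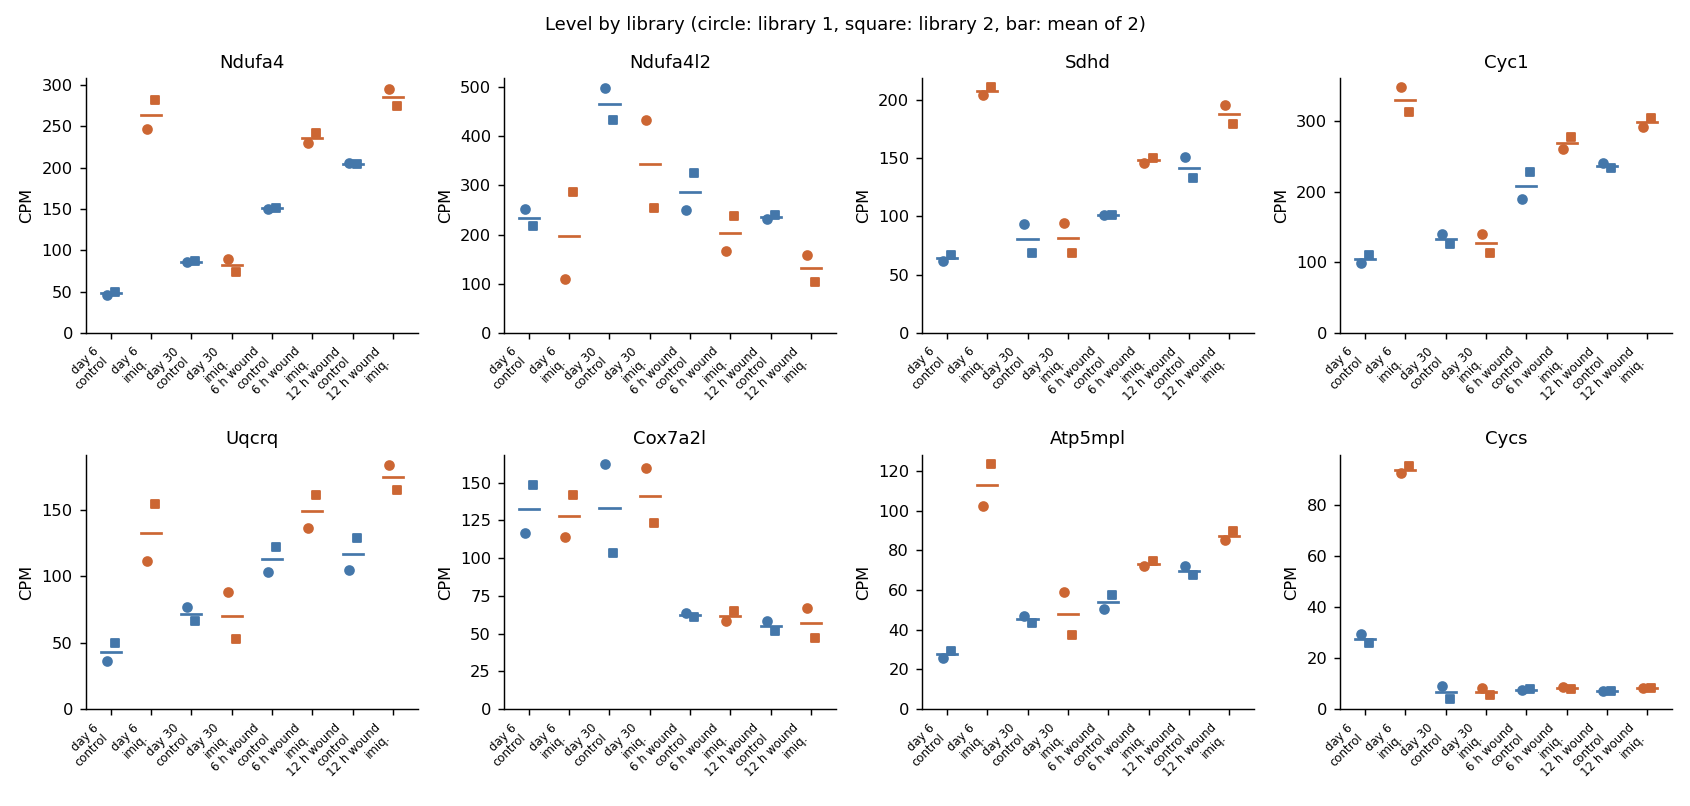
CPM of 8 members (vertical axes, each from 0) in the 16 libraries (8 groups; blue control, orange imiquimod; circle library 1, square library 2, bar the mean of 2). Ndufa4, Sdhd, Cyc1, Uqcrq and Atp5mpl rose at day 6, Ndufa4l2 did not, Cox7a2l was lower in every wound library than in every unwounded one, and Cycs was under 10 CPM in all libraries after day 6.

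Other mitochondrial genes were counted in the same comparison. Of 24 genes of the tricarboxylic acid cycle and pyruvate dehydrogenase, 18 rose and 1 fell (median 0.65), among them Suclg1, a subunit of succinyl-CoA ligase (1.47 ± 0.11), and Idh3a, of the NAD-linked isocitrate dehydrogenase (1.36 ± 0.18). Of 20 mitochondrial import genes 17 rose and 0 fell (median 1.15), including the pore gene Tomm40 (1.83 ± 0.21) and the intermembrane chaperone Timm8a1 (1.81 ± 0.32). Among 17 tested genes for carriers, coupling and antioxidant functions 16 rose, and the largest changes were those of the peroxidase Prdx3 (1.92 ± 0.13) and the chaperonin Hspd1 (1.71 ± 0.20). Assembly factors rose in 10 of 15 tested cases for complex I (Ndufaf4, 1.49 ± 0.17), in 2 of 6 for complex III (Lyrm7, 1.15 ± 0.27) in 8 of 22 for complex IV (Coa7, 1.44 ± 0.25) and in 3 of 5 assembly and inhibitor genes of complex V. The 4 assembly factors of complex II did not pass (log2 changes from -0.23 to 0.48). No gene of these 5 lists fell. Of 13 genes of coenzyme Q synthesis 8 rose and 3 fell, and the largest change was a fall of Coq8a (-1.96 ± 0.28). Of 12 genes of mitochondrial fusion, fission and mitophagy 3 rose and 3 fell, with Pink1 (-0.82 ± 0.19), which marks damaged mitochondria for removal, among the latter. Pink1 lost the call without control library 2 (adjusted p = 0.0757). Mitochondrial ribosomal proteins rose in 70 of 77 cases (median 0.79), and cytosolic ribosomal proteins in 12 of 78 (median 0.39).

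The subunits encoded by the mitochondrial genome were measured less evenly. For the 9 of 13 that were tested the median log2 change at day 6 was 1.17, and none passed. The others were not tested, and mt-Co2, which was, had a log2 change of 0 with an SE of 0 at day 30. Levels in this set are therefore uncertain, and the cause was not tested. The 13 genes together took 3.26% and 1.41% of all counts in the control libraries and 7.53% and 1.76% in the imiquimod libraries, so the groups overlapped. The nuclear members rose also when the mitochondrial genes were left out of the fit, as the closing section gives.

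Of 18 tested regulators of mitochondrial biogenesis, 8 rose and 2 fell at day 6. The coactivator Ppargc1a was at 3.69 and 5.23 CPM in control and at 1.72 and 1.11 with imiquimod, a fall of 1.64 ± 0.55 on the log2 scale (adjusted p = 0.032). That call was lost without any 1 of the 4 libraries (adjusted p from 0.0526 to 0.169). Its relative Ppargc1b went the other way, from 14.4 and 8.71 CPM to 36.2 and 22.9 (1.35 ± 0.26, adjusted p = 0.0016). The nuclear receptor gene Esrra rose by 0.80 ± 0.12, the third coactivator gene Pprc1 by 0.65 ± 0.20, the mitochondrial transcription factor gene Tfam by 0.60 ± 0.12, Nrf1 by 0.58 ± 0.14 and Gabpa by 0.47 ± 0.16. The calls of Pprc1, Nrf1 and Gabpa were lost without control library 2 (adjusted p = 0.224, 0.0684 and 0.0957), that of Pprc1 also without imiquimod library 1 (0.0721) or 2 (0.0736), and that of Gabpa without control library 1 (0.198) or imiquimod library 2 (0.295). Myc stood at -0.09 ± 0.24 (adjusted p = 0.80).

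Markers of other cell types also differed at day 6. The 12 macrophage markers summed to 76.8 and 91.6 CPM with imiquimod and to 19.6 and 10.6 in control, and 9 of the 12 were higher. The sums were between 3.1 and 18.1 CPM in the later libraries. Fibroblast markers summed to 186 and 522 CPM in control and to 271 and 600 with imiquimod. Of 6 Langerhans cell markers 2 were higher and 0 lower. The higher ones were H2-Ab1 (8.06 and 8.32 against 36.1 and 21.1 CPM) and H2-Eb1. Cd207, of the same list, did not rise, with 0.283 and 0.601 CPM in control and 0.200 and 0.190 with imiquimod. Epcam overlapped, with 119 and 125 CPM against 215 and 109. T cell markers were under 2 CPM in sum in every library. Markers of the sorted basal cells moved too, with 1 of 8 higher (Krt14, 1.10 ± 0.38) and 3 lower. Col17a1, a collagen of the hemidesmosome, read 6647 and 6689 CPM in control and 1292 and 2991 with imiquimod (-1.64 ± 0.33), Itgb4 was at -0.78 ± 0.21 and Trp63 at -0.75 ± 0.21. In bulk samples, another mix of cells and another level of RNA per cell cannot be told apart, and the part of these markers in the members' changes was not tested.

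At day 30, after imiquimod had been stopped, the members stood at 9527 ± 2001 CPM in imiquimod skin and at 9882 ± 1748 in control skin (SD, n = 2). The libraries overlapped (10942 and 8112 against 11118 and 8647 CPM). None of the 80 members passed in edgeR, where 0.0116% of all genes did, and 0 had an unadjusted p under 0.05, where 4.14% of all genes did. DESeq2 called 0 too. The SE of a single member was 0.18 at the median. The median of the members was -0.05. It was -0.10 without both libraries numbered 1. With 1 library left out it ran from -0.26 without imiquimod library 1 to 0.17 without imiquimod library 2. Those fits compare groups unequal in Xist and Y-linked reads, so the change of sign cannot be told apart from that imbalance. Ndufa4 read 85.4 and 87.1 CPM in control and 89.9 and 73.2 after imiquimod. Sdhd read 93.4 and 68.3 CPM against 94.1 and 68.7. In Sdhd the libraries of the same number, not of the same treatment, lay together.

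The difference between the day 6 and day 30 effects of imiquimod was tested directly. It passed for 58 members, all with the larger effect at day 6, where 13.7% of all genes passed in that direction. The median difference was 1.05 on the log2 scale. It passed for 46 members (median 0.96) without both day 30 libraries numbered 1, and for 27 (median 0.95) in a fit of the 8 compared libraries alone. The shares of all genes that passed in those 2 fits are not given here. Complex III passed in 9 of 9 members, complex I in 26 of 37, complex II in 3 of 4, complex IV in 7 of 12 and complex V in 12 of 17; without the 2 libraries these counts were 8, 18, 3, 5 and 11. The difference was 2.55 ± 0.19 for Ndufa4, 1.68 ± 0.24 for Sdhd and 1.74 ± 0.21 for Cyc1, and 2.59, 1.55 and 1.69 without them.

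**Figure D3:**
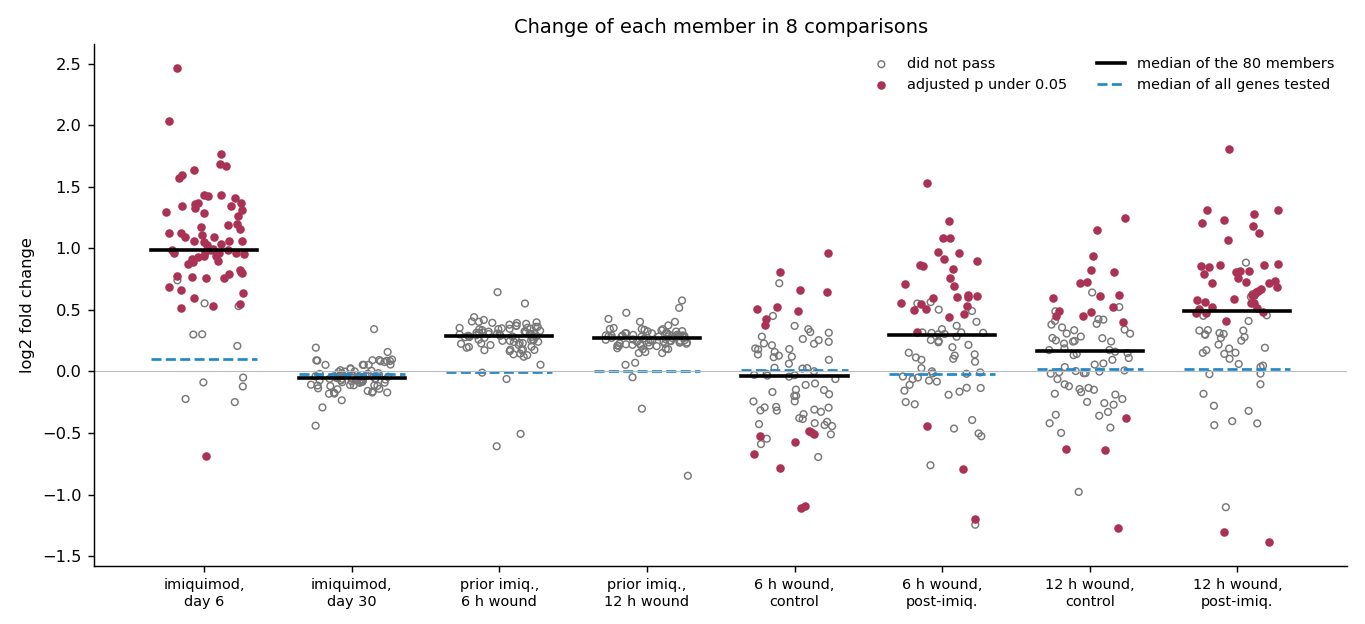
Log2 fold change (vertical axis) of each of the 80 members in 8 comparisons (horizontal axis; points are spread sideways at random). Filled points passed an adjusted p of 0.05, black bars are the members' medians and dashed blue bars the medians of all genes tested; the members' median was 0.98 at day 6, -0.05 at day 30 and 0.29 and 0.27 for prior imiquimod in wounds.

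The next question was whether skin that had once been inflamed differed from control skin after a wound. At 6 h the summed level was 11156 and 11978 CPM in imiquimod skin against 9301 and 9868 in control skin. At 12 h it was 13517 and 12639 CPM against 11016 and 10737. At both times the imiquimod libraries lay above the controls without overlap. For single genes the test found no member at an adjusted p under 0.05 with edgeR at 6 h, where 0.0347% of all genes were called, and 12 members (6.31% of all genes) had an unadjusted p under 0.05. At 12 h it also found 0, where 0% of all genes were called, and 8 members (2.46% of all genes) had an unadjusted p under 0.05. The SE of a single member was 0.18 at the median at both times. DESeq2 called 1 member at 6 h (Ndufa4) and 0 at 12 h. The direction was nonetheless nearly uniform: 76 of 80 members had a positive log2 change at 6 h (49% of all genes) with a median of 0.29 against -0.01 for all genes, and 77 of 80 at 12 h (50.5% of all genes) with a median of 0.27 against 0.00. Both imiquimod libraries exceeded both controls for 69 members at 6 h, as for 19.4% of all genes, and for 65 members at 12 h, as for 20.4%. The members are not independent of one another, so these counts are descriptions.

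The medians were alike across the complexes. At 6 h they were 0.28 in complex I, 0.22 in complex II, 0.29 in complex III, 0.31 in complex IV and 0.33 in complex V. At 12 h they were 0.27, 0.25, 0.29, 0.28 and 0.27 in the same order. Leaving out 1 library at a time moved the median over all members between 0.24 and 0.31 at 6 h, and between 0.20 and 0.31 at 12 h.

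Ndufa4 had the largest positive log2 change of the members at 6 h. It read 150 and 152 CPM in control wounds and 230 and 242 in imiquimod skin at 6 h, a log2 change of 0.64 ± 0.13 (unadjusted p = 0.000248, adjusted p = 0.185). At 12 h it read 205 and 205 CPM against 296 and 275 (0.48 ± 0.13, adjusted p = 1). Its libraries were closer within a group than between groups at both times. The 6 h value passed with DESeq2 (adjusted p = 0.00117) and in edgeR with no filter on low counts (0.0368), but not with the library number as a block (0.0579). Sdhd read 101 and 101 CPM in control wounds and 146 and 150 in imiquimod skin at 6 h (0.55 ± 0.17), and 151 and 133 against 195 and 179 at 12 h (0.40 ± 0.17). Uqcrq stood at 0.40 ± 0.24 at 6 h and 0.58 ± 0.24 at 12 h, and Cyc1 at 0.37 ± 0.15 and 0.33 ± 0.15.

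The members below 0 at both times were Ndufa4l2, Ndufv3 and Cox6b2. Ndufa4l2 read 250 and 325 CPM in control wounds and 167 and 238 in imiquimod skin at 6 h (-0.51 ± 0.40, adjusted p = 0.959). At 12 h it read 232 and 241 CPM against 159 and 103 (-0.85 ± 0.40, adjusted p = 1), a change that passed in edgeR with no filter on low counts (adjusted p = 0.00365). Thus the paralogs Ndufa4 and Ndufa4l2 lay on opposite sides of 0 at both times. Cox7a2l was at -0.01 ± 0.23 at 6 h and 0.05 ± 0.23 at 12 h.

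The 6 h and 12 h comparisons share no library. Over the 80 members their log2 changes correlated with a Pearson r of 0.85 and a Spearman rho of 0.70, and 76 members were positive in both. Over all 17299 genes tested the correlations were 0.37 and 0.41, and 5860 genes were positive in both. These are correlations across genes, which share libraries and are not independent replicates, and they are given as a description.

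**Figure D4:**
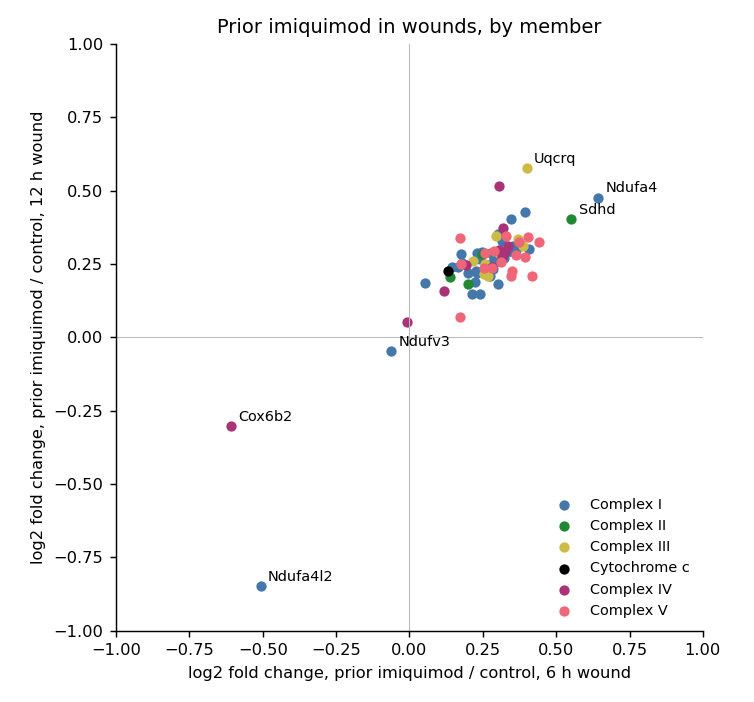
Log2 fold change of prior imiquimod against control in 6 h wounds (horizontal axis) and in 12 h wounds (vertical axis) for each of the 80 members, coloured by complex; grey lines mark 0. Most points lie to the upper right of 0, with Ndufa4, Sdhd and Uqcrq further out and Ndufa4l2, Cox6b2 and Ndufv3 on the other side of 0.

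Some other mitochondrial lists showed the same direction in 6 h wounds without a call. The lists of assembly factors, tricarboxylic acid cycle, coenzyme Q synthesis, fusion, fission and mitophagy, and regulators are not given for this comparison. In 6 h wounds 76 of 77 mitochondrial ribosomal protein genes were positive (median 0.24), as were 19 of 20 import genes (0.23) and 15 of 17 carrier, coupling and antioxidant genes (0.26). The cytosolic ribosomal proteins had a median of 0.13 at 6 h and 0.18 at 12 h, and the mitochondrially encoded subunits 0.09 and 0.05. Of the 6 neutrophil markers only Cxcr2 was above 0.142 CPM in any library. It read 70.5 and 114 CPM in control and 169 and 184 in imiquimod skin at 6 h, and 120 and 120 against 166 and 140 at 12 h, and its part in the members' levels was not tested.

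Wounds were also compared with unwounded day 30 skin of the same treatment. In control skin at 6 h, 9 members rose and 9 fell, with a median of -0.04, where 18% of all genes rose and 16.7% fell. The counts were 13 and 4 without both day 30 libraries numbered 1. The shares of all genes in this paragraph belong to the fit of all libraries, and none is given for the counts without those libraries. At 12 h in control skin 16 rose and 4 fell (median 0.17; 16.5% and 14.3% of all genes), and 22 and 2 without those libraries. In post-imiquimod skin 27 rose and 3 fell at 6 h (median 0.29; 20.1% and 18.6% of all genes), and 35 and 3 without those libraries. At 12 h in post-imiquimod skin 41 rose and 2 fell (median 0.49; 20.3% and 17.3% of all genes), and 47 and 1 without those libraries. Single libraries moved these counts. In control skin the number called at 6 h fell from 18 to 10 without day 30 library 1, to 7 without wound library 1 and to 6 without wound library 2, and at 12 h from 20 to 9 without day 30 library 2, to 9 without wound library 1 and to 10 without wound library 2. In post-imiquimod skin it fell at 6 h from 30 to 19 without day 30 library 2, to 16 without wound library 1 and to 15 without wound library 2, and at 12 h from 43 to 21 without day 30 library 2 and to 27 without wound library 1.

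Markers of other cells moved in the same comparisons. Macrophage markers summed to 3.12 to 3.51 CPM in the day 30 libraries and to 7.49 to 18.1 in the wound libraries. The list did not move as 1: Mrc1 read 0 to 0.0453 CPM at day 30 and 0.637 to 11.5 in wounds. Adgre1 overlapped, with 0 to 0.226 CPM against 0.0138 to 0.220. Of the 12, 6 rose at 6 h and 3 at 12 h in control skin, and 4 and 2 in post-imiquimod skin. Without both day 30 libraries numbered 1 these counts were 4, 1, 1 and 2, and 1 marker was lower at 6 h in control skin. Of the 8 basal markers 3 rose at 6 h and 3 at 12 h in control skin, and 2 and 3 in post-imiquimod skin (3, 3, 2 and 2 without those libraries). Itgb1 and Ly6a, the genes of integrin β1 and Sca1 that the sort used, were among them in all 4. Fibroblast markers rose in 2 of 8 cases at 6 h and at 12 h in control skin, and in 0 and 1 in post-imiquimod skin. Without both day 30 libraries numbered 1 these counts were 2, 1, 0 and 1. With all libraries, the counts in post-imiquimod skin are set against a day 30 group that was uneven in these markers. They summed to 161 CPM in its library 1 and to 8.60 in its library 2. The part of these markers in the members' changes was not tested.

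By complex, 19 of 37 members of complex I rose in 12 h wounds of post-imiquimod skin, as did 3 of 4 of complex II, 7 of 9 of complex III, 4 of 12 of complex IV and 8 of 17 of complex V. Without both day 30 libraries numbered 1 these counts were 19, 3, 6, 5 and 13. Ndufa4 rose in each wound group against its day 30 group. The log2 change was 0.81 ± 0.13 at 6 h and 1.25 ± 0.13 at 12 h in control skin, and 1.53 ± 0.13 and 1.81 ± 0.13 in post-imiquimod skin, with adjusted p at most 0.000537. Without both day 30 libraries numbered 1 the 4 values were 0.77, 1.20, 1.65 and 1.93, and all passed. Cyc1 rose by 0.64 ± 0.15 and 0.83 ± 0.15 in control skin and by 1.09 ± 0.15 and 1.23 ± 0.15 in post-imiquimod skin; the first of these did not pass without wound library 2 (adjusted p = 0.0593). Without both libraries numbered 1 the Cyc1 values were 0.69, 0.87, 1.21 and 1.36, and all passed. Sdhd was at 0.32 ± 0.17 in control skin at 6 h (adjusted p = 0.158). The complex II median in that comparison was 0.12, and 0.22 without both day 30 libraries numbered 1. Sdhd rose by 0.81 ± 0.17 at 12 h in control skin, and by 0.86 ± 0.17 and 1.20 ± 0.17 in post-imiquimod skin. These 3 values were 1.02, 1.07 and 1.41 without the 2 libraries, and passed. These comparisons share their day 30 libraries within a treatment.

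Cox7a2l moved the other way. Its 4 unwounded day 30 libraries read 163, 103, 159 and 123 CPM, and its 8 wound libraries lay between 47.2 and 67.1 CPM. The groups did not overlap. It fell by 1.10 ± 0.23 at 6 h and by 1.27 ± 0.23 at 12 h in control skin, and by 1.20 ± 0.23 and 1.31 ± 0.23 in post-imiquimod skin, with adjusted p from 0.000854 to 0.00298. Without both day 30 libraries numbered 1 the values were -0.76, -0.94, -1.03 and -1.14, and all passed. Atp5s fell by 1.11 ± 0.23 in control skin and by 0.80 ± 0.23 in post-imiquimod skin at 6 h; the latter did not pass without day 30 library 2 (adjusted p = 0.0724) or wound library 2 (0.133). Without both libraries numbered 1 the values were -0.98 and -0.88, and both passed. Ndufa4l2 passed in 12 h wounds of post-imiquimod skin, where it fell by 1.39 ± 0.40 (adjusted p = 0.0183). It lost that call without day 30 library 1 (0.129) or wound library 2 (0.131), and without both day 30 libraries numbered 1 it was at -0.99 (0.127).

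Whether the wound effect differed between imiquimod and control skin was tested as well. No member passed at 6 h or 12 h in edgeR or DESeq2, where 0% of all genes did in edgeR at either time. Unadjusted p-values under 0.05 were found for 8 members at 6 h (6.11% of all genes) and 4 at 12 h (2.91%) in edgeR. The difference was positive for 76 members at 6 h (50.5% of all genes; median 0.33) and for 77 at 12 h (52%; median 0.32). Single day 30 libraries moved these medians: at 6 h to 0.12 without control library 1, 0.44 without control library 2, 0.53 without imiquimod library 1 and 0.09 without imiquimod library 2, and at 12 h to 0.12, 0.45, 0.52 and 0.11 in the same order. Each of these fits left day 30 groups unequal in Xist and Y-linked reads, so the values also carry that imbalance. Without both libraries numbered 1 the medians were 0.36 and 0.35.

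Among the regulators in wounds, Tfam rose in control skin by 0.70 ± 0.12 at 6 h and 0.58 ± 0.12 at 12 h. Myc fell there by 1.51 ± 0.25 and 2.07 ± 0.25 on the log2 scale. Ppargc1a, at 1.51 and 2.18 CPM in day 30 control skin, read 0.355 and 0.0374 at 6 h (-3.03 ± 0.63, adjusted p = 0.0029). Those 6 h readings lie near the floor, which leaves the size of the fall uncertain. Ppargc1b rose by 1.28 ± 0.27 at 6 h. With both day 30 libraries numbered 1 left out, these values were 0.76 and 0.63 for Tfam, -1.34 and -1.90 for Myc, -3.26 for Ppargc1a and 1.12 for Ppargc1b, and all passed. Import genes rose in 11 of 20 cases and fell in 2 in control skin at 6 h (median 0.82), and mitochondrial ribosomal proteins rose in 37 of 77 cases and fell in 1 (median 0.41), against the 9 and 9 of 80 subunits. Without those libraries 10 import genes rose and 1 fell (median 0.82), and 36 mitochondrial ribosomal proteins rose and 1 fell (median 0.49), against 13 and 4 subunits. The 9 tested mitochondrially encoded subunits had a median of -0.65, and none passed. That median was -0.37 without those libraries.

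Day 30 and day 6 control skin differed as well. Of the 80 members 39 were higher at day 30 and 7 were lower, with a median of 0.51, where 11.8% of all genes were higher and 9.45% lower. The counts were 7 and 7, with a median of 0.28, without both day 30 libraries numbered 1, a fit for which the share of all genes is not given here. The number called fell from 46 to 11 without day 6 library 1, to 27 without day 6 library 2 and to 11 without day 30 library 1. The 7 lower members were Atp5g2, Atp5g1, Cycs, Cox7c, Cox5b, Atp5h and Ndufs3. Atp5g2 read 27.7 and 33.1 CPM at day 6 and 0.756 and 1.06 at day 30, a log2 change of -5.04 ± 0.27 (adjusted p = 7.67e-08). Atp5g1 went from 53.1 and 56.9 CPM to 10.3 and 9.71 (-2.46 ± 0.15), Cycs from 29.3 and 25.7 to 9.22 and 3.92 (-2.09 ± 0.30) and Cox7c from 31.7 and 37.2 to 15.6 and 12.2 (-1.31 ± 0.20). These 4 genes kept the call with any 1 library left out, while Cox5b, Atp5h and Ndufs3 lost it without single libraries (adjusted p up to 0.143, 0.112 and 0.11). They were also lower in every day 30 and wound library, imiquimod included, than in every day 6 library. Without both day 30 libraries numbered 1 the values were -4.89 for Atp5g2, -2.56 for Atp5g1, -2.87 for Cycs and -1.55 for Cox7c, and all 7 passed as lower. The third c subunit gene, Atp5g3, was among the 39 that were higher (0.64 ± 0.19), and did not pass without those libraries (0.29, adjusted p = 0.209).

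Markers of other cells were lower at day 30 as well. Fibroblast markers summed to 186 and 522 CPM in day 6 control and to 14.0 and 11.4 in day 30 control, and 6 of 8 were lower. Macrophage markers summed to 19.6 and 10.6 CPM against 3.31 and 3.48, with 8 of 12 lower, and the 4 hair follicle bulge markers to 13.7 and 16.5 against 3.45 and 3.16, with 3 lower. The lower markers numbered 6, 5 and 1 without both day 30 libraries numbered 1. The part of these markers in the members' changes was not tested.

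**Figure D5:**
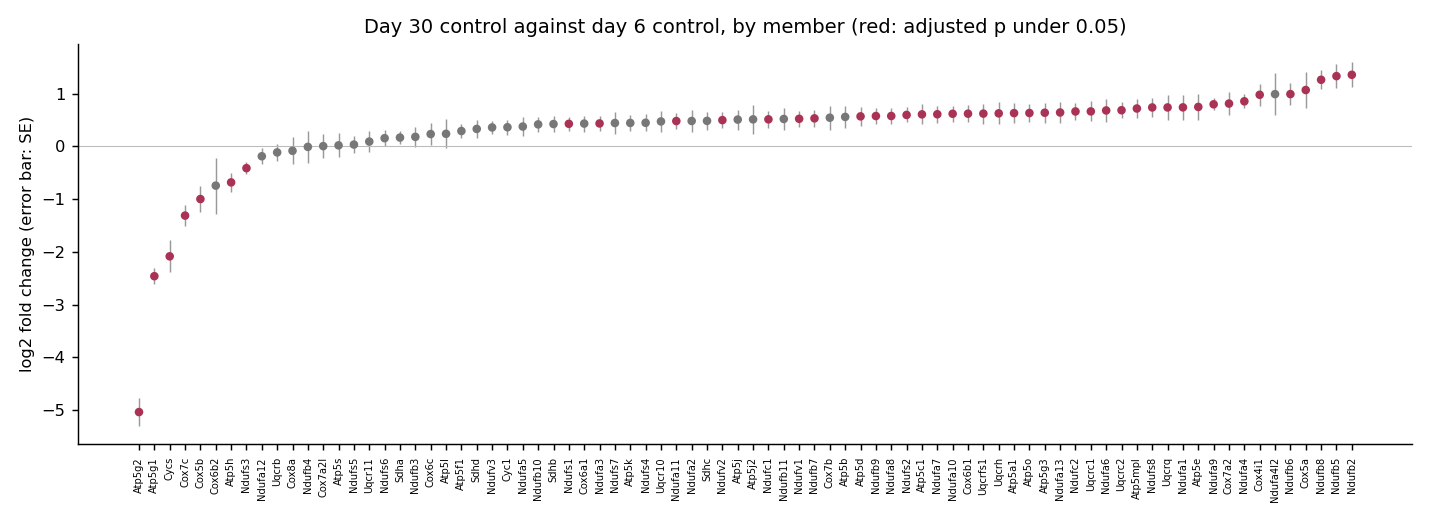
Log2 fold change of day 30 control against day 6 control (vertical axis; error bars are SE, n = 2 libraries a group) for the 80 members in order of their change (horizontal axis); red points passed an adjusted p of 0.05. Atp5g2, Atp5g1, Cycs and Cox7c lie far below the other members, at -5.04, -2.46, -2.09 and -1.31.

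The cytosolic ribosomal proteins, many of which have near-identical processed copies in the genome, shifted in the same comparison: 3 of 78 were higher and 54 lower, with a median of -1.49 (1 and 57, with a median of -1.85, without both day 30 libraries numbered 1), and 28 changed by more than 2 on the log2 scale in either direction. Reads of genes with such copies can be counted or dropped depending on the alignment settings and read length, and the levels of Atp5g2, Atp5g1, Cycs, Cox7c and Cox5b are uncertain for that reason, whose part in these changes was not tested. Time point and any difference in library preparation, sequencing or counting between the times cannot be told apart here. The comparisons within a time do not cross this step.

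Over all 8 groups, the summed level of the members was ordered as day 6 control (6871 ± 729 CPM), day 30 imiquimod (9527 ± 2001), 6 h control wound (9585 ± 401), day 30 control (9882 ± 1748), 12 h control wound (10877 ± 197), 6 h imiquimod wound (11567 ± 581), 12 h imiquimod wound (13078 ± 621) and day 6 imiquimod (14471 ± 666; SD, n = 2 each). The sum is weighted towards abundant transcripts such as Atp5b. The groups from day 30 imiquimod to 12 h control wound lay within the spread of the day 30 libraries. The sums were not tested; an exact permutation of 2 libraries against 2 cannot give a two-sided p under 0.333.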

How the data were processed

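Per the submitters' processing notes the authors aligned reads with STAR to mm10. They deposited raw counts per gene for each library; the STAR version, annotation release and strand setting were not given in the sources used. The kit (TruSeq RNA, per the labels' protocols) does not mark the strand, so overlapping and antisense genes share reads. Library totals were 23623968 to 76993427 counts; these cover counting error only. Symbols came from the gene table given with the data (47224 of 47729 IDs matched).

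All genes were fitted with edgeR 4.0.16 in R 4.3.3 (quasi-likelihood test, robust, TMM, filterByExpr) in 1 model of 8 group means over 16 libraries with 8 residual degrees of freedom. P-values are two-sided, adjusted by Benjamini-Hochberg over the 17299 genes tested; the threshold was 0.05. Levels are CPM on TMM-scaled totals. SE is the log2 change divided by the square root of F. The fit was tested on simulated data. Libraries of the same number within a time deviated together, with correlations of 0.22 to 0.54 over the 4 times, while between times they were -0.29 to 0.12. The fit with the number as a block within each time is therefore given, where it changes a call, only for comparisons within a time.

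Alternatives were RLE scaling, no mitochondrial genes, no filter, DESeq2 1.42.0, the block, the compared libraries alone, no day 30 libraries numbered 1, and each library left out. The members, lists and the rule for named genes (up to 2 highest and 2 lowest per complex and comparison past the threshold, core subunits and tissue forms, up to 2 per list, and 8 regulators) were chosen with earlier results of these data known, and the ribosomal lists, the 4 printed promoters and the motif letters were chosen after values were seen.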

Additional observations from a re-analysis of the deposited data

Results flagged for a closer look

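The effect of imiquimod differed between day 6 and day 30 in a direct test of the difference (edgeR, adjusted over all genes) for 58 members, each with the larger effect at day 6. Among the members named by the rule, the difference on the log2 scale was Ndufa4 2.55, Ndufb7 1.66, Ndufs4 0.70, Ndufa11 0.71, Sdhd 1.68, Sdhb 1.16, Sdha 1.14, Cyc1 1.74, Uqcrq 1.65, Uqcrc1 0.86, Uqcrh 0.93, Cycs 1.71, Cox6b1 1.42, Cox7b 1.41, Cox7a2 0.97, Cox6a1 1.07, Atp5mpl 1.94, Atp5g3 1.68, Atp5h 0.85 and Atp5c1 0.90. Without both day 30 libraries numbered 1, which go against their label, 46 members passed, and in a fit of the compared libraries alone 27 did. The shares of all genes that passed in these fits are not given here. Without those 2 libraries Ndufs4, Ndufa11, Uqcrc1, Cox7a2 and Atp5h lost the call (adjusted p from 0.0569 to 0.102). These 5, Uqcrh and Atp5c1 also lost it without day 30 control library 1 or day 30 imiquimod library 2, with adjusted p from 0.135 to 0.217. Cycs lost the call without day 30 imiquimod library 2 (adjusted p = 0.0571).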

How the results depend on the processing

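Of the 80 members, the number called at day 6 (69) stayed within 1.5 times under RLE scaling, without the mitochondrially encoded genes, without a filter, in DESeq2, with the block and with each library left out (53 to 68). With the replicate block, the calls were 35 at 6 h and 38 at 12 h in control wounds and 46 at 6 h in post-imiquimod wounds; these cross times, between which equal numbers did not pair libraries, and the block takes what libraries of a time share out of the error. For the other comparisons the block moved the count by less than 1.5 times. In a fit of the compared libraries alone, which has fewer residual degrees of freedom, 7 members were called at 6 h and 11 at 12 h in control wounds, 10 for day 30 against day 6 control and 27 for the day 6 minus day 30 difference. Without both day 30 libraries numbered 1, day 30 against day 6 control gave 14. With no filter 1 member was called for prior imiquimod at 6 h and 1 at 12 h, and DESeq2 called 1 at 6 h; the cause was not tested. With 1 library left out, the calls ran from 6 to 16 (6 h, control), 9 to 19 (12 h, control), 15 to 36 (6 h, post-imiquimod), 21 to 41 (12 h, post-imiquimod), 11 to 41 (day 30 against day 6 control) and 39 to 62 (day 6 minus day 30), and were 0 in the other comparisons. The counts in this section are given without the share of all genes called in the same fit. They describe how the member counts moved, and do not set the members against all genes. No value of a named member changed sign among those that had passed. Depth limits Cox6b2 and Atp5g2, whose lowest counts in a library were 14 and 16; the next lowest of any member was 119 (Ndufb4).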
